A study of Ovis aries with 7 samples.

Results

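The genes described here are MSH3, MSH6, MLH3, PMS1, PMS2, FAN1 and LIG1, DNA repair genes that are known as modifiers of CAG repeat expansion. They were taken as the rows of the deposited count matrices that carry these symbols. Of the 7 symbols, 5 had a row among the 26479 features: MSH3 (ENSOARG00020016326), MSH6 (ENSOARG00020004740), PMS1 (ENSOARG00020009620), PMS2 (ENSOARG00020023689) and LIG1 (ENSOARG00020014185). MLH3 and FAN1 had no row under those symbols and were not analysed here. The nuclei came from the striatum of 5-year-old sheep. OVT73 sheep carry a full-length human HTT cDNA with an expanded polyglutamine tract, driven by a short stretch of the human HTT promoter, and control sheep lack it. All OVT73 animals belong to this 1 transgenic line. The paper describes the repeat of this line as somatically stable, and repeat length was not measured here. The 7 droplet libraries comprised 3 from OVT73 and 4 from control animals. Each library pooled 2 sheep, except control libraries 1 and 2, which held 1 sheep each. The library was the replicate in every comparison.

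Mismatch repair begins when a MutS dimer finds unpaired bases and recruits a MutL dimer, whose endonuclease opens the strand before resynthesis and ligation. At long CAG repeats in non-dividing cells this same machinery can lengthen the repeat, and in Huntington disease the medium spiny neurons (MSNs) of the striatum are the cells known for long somatic expansions. MSH3 is the MutS subunit that binds small loops, MSH6 is the MutS subunit that binds base mismatches, PMS1, PMS2 and MLH3 are MutL subunits, FAN1 is a nuclease that opposes expansion, and LIG1 is the ligase that seals nicks during replication and repair.

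The libraries held 20887378 to 70473426 UMIs (unique molecular identifiers, counted molecules) in 3277 to 8815 barcodes, of which 3102 to 8340 nuclei were kept. Counted in UMIs, all 3 OVT73 libraries were deeper than all 4 control libraries, and OVT73 library 1 was the deepest. The margin was small for OVT73 library 3 (27760110, against 27704528 in control library 4). By sequenced reads, listed in the paper's supplement, control library 3 was above OVT73 libraries 2 and 3. Pairs of libraries shared 2 to 20 barcodes, and most pairs shared more than random draws from the barcode list would give. OVT73 library 1 and control library 4 shared 20 (6.22 by random draws). OVT73 library 2 and control library 1 shared 2 (2.68 by random draws). The added human HTT sequence had 322, 61 and 25 UMIs in OVT73 libraries 1, 2 and 3, and 1, 2, 4 and 6 UMIs in control libraries 1 to 4. Clusters were named from marker genes and are written here as "-like", and 30004 nuclei (92.0% of those kept) were in a named class. The 9 classes with at least 10 nuclei in every library were D1 MSN-like (2595 nuclei), D2 MSN-like (2283), eccentric MSN-like (316), PV/Th interneuron-like (396), neuroblast-like (1320), oligodendrocyte-like (15121), OPC-like (oligodendrocyte precursor, 2909), astrocyte-like (2115) and microglia-like (2781). All listed pathway genes were left out of the genes used for clustering.

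All 5 measured genes were detected in every one of the 9 classes. Over all kept nuclei there were 28550 UMIs of MSH3, 17903 of PMS1, 7944 of PMS2, 7876 of MSH6 and 1170 of LIG1. These totals also depend on gene length and on how much of a gene was captured, so they give no order of abundance between genes. Per nucleus, MSH3 gave 3.68 ± 0.720 UMIs (SD, n = 7 libraries) in D1 MSN-like nuclei and 0.254 ± 0.0351 in oligodendrocyte-like nuclei. The median nucleus held 22383 UMIs of all genes in the D1 MSN-like class and 1769 in the oligodendrocyte-like class, so levels are given below as UMIs per 1000000 UMIs of the same class and library (CPM).

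**Figure D1:**
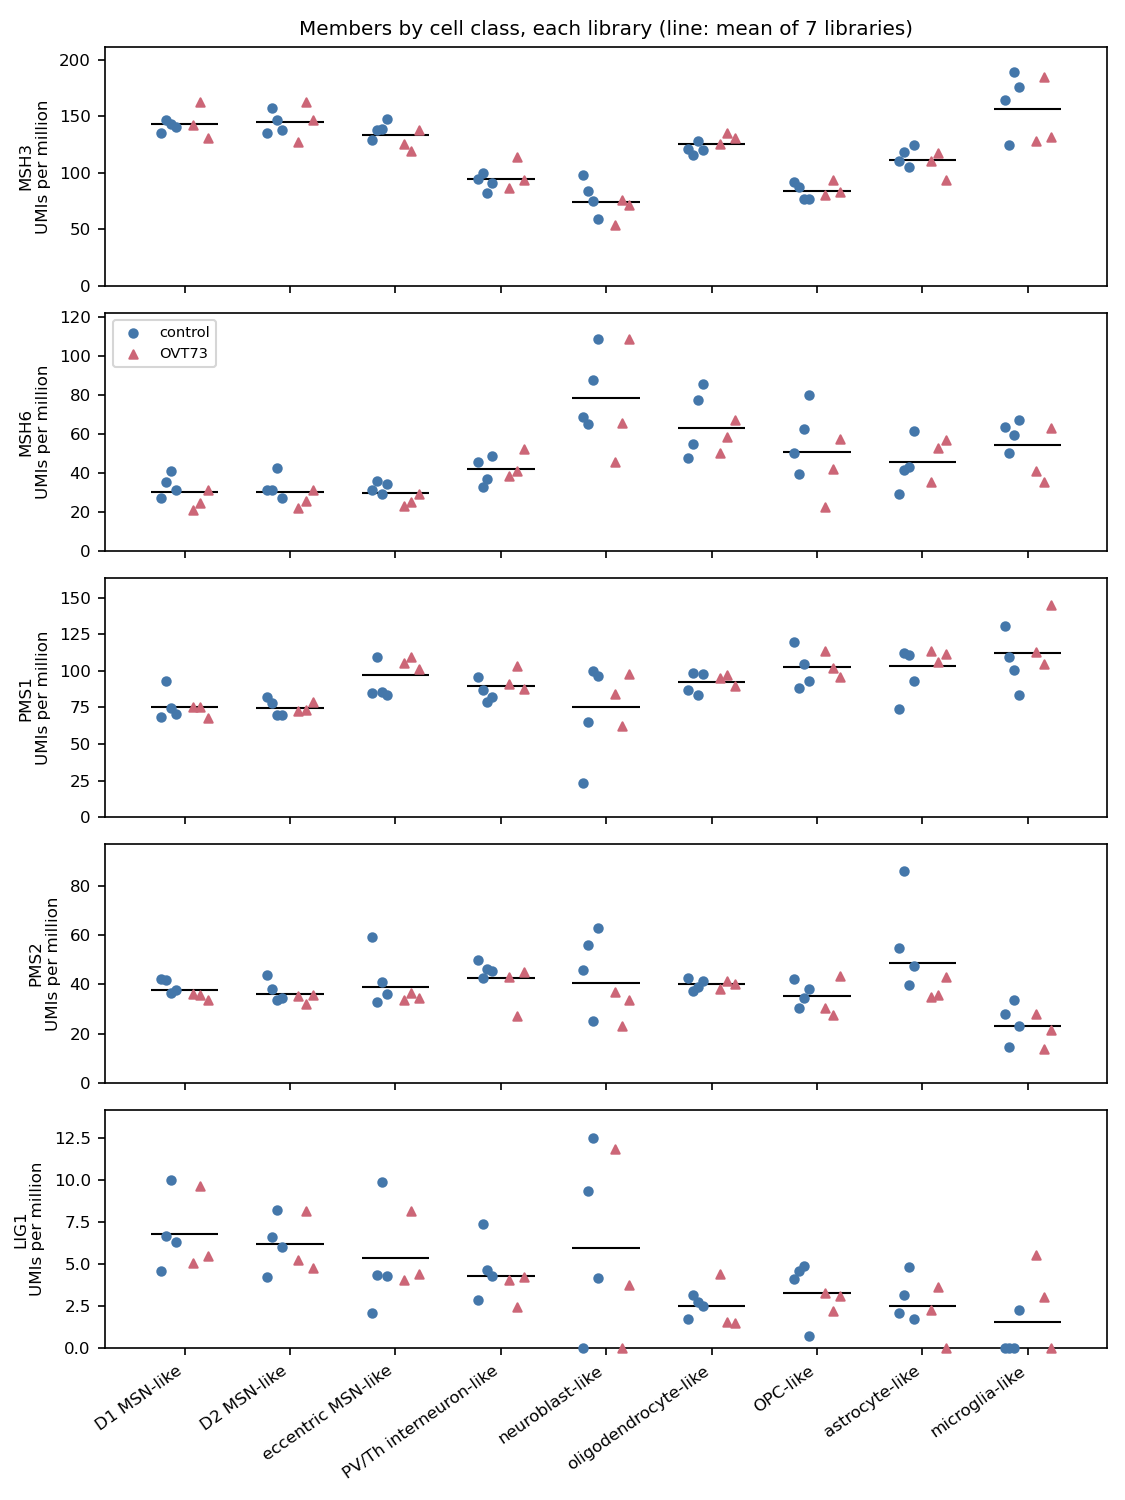
Level of each gene (UMIs per 1000000 UMIs, linear axis from 0) in 9 cell classes, with 1 point for each library (circles control, triangles OVT73) and a line at the mean of 7 libraries. MSH6 is lowest in the 3 MSN-like classes and highest in neuroblast-like nuclei, and control and OVT73 points lie among each other in most classes.

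MSH3, the loop-binding MutS subunit, was among the higher values in MSN-like classes. In D1 MSN-like nuclei it was at 135, 147, 143 and 140 CPM in control libraries 1 to 4 and at 142, 163 and 131 CPM in OVT73 libraries 1 to 3. In D2 MSN-like nuclei the mean was 145 ± 12.6 CPM (SD, n = 7), in eccentric MSN-like nuclei 134 ± 9.45 and in oligodendrocyte-like nuclei 125 ± 6.70. The mean of microglia-like nuclei was 157 ± 28.0 CPM, with a range of 124 to 189. The lower end held astrocyte-like (111 ± 10.2), PV/Th interneuron-like (94.4 ± 10.4), OPC-like (84.2 ± 6.80) and neuroblast-like nuclei (73.7 ± 14.8). Between neighbours in this order the mean difference within libraries exceeded its SD only from astrocyte-like to PV/Th interneuron-like nuclei and from PV/Th interneuron-like to OPC-like nuclei, and both steps had the same direction in 7 of 7 libraries.

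MSH6, the mismatch-binding MutS subunit, had the opposite end of its range in MSN-like nuclei. The D1 MSN-like values were 27.2, 35.5, 41.4 and 31.6 CPM in control libraries 1 to 4 and 21.2, 24.6 and 31.6 CPM in OVT73 libraries 1 to 3. The oligodendrocyte-like values were 47.9, 54.8, 77.8 and 85.9 CPM in the control libraries and 50.5, 58.4 and 67.3 CPM in the OVT73 libraries. No oligodendrocyte-like value was as low as the highest D1 MSN-like value. Means over 7 libraries were 30.3 ± 6.43 CPM in D2 MSN-like, 30.02 ± 4.64 in eccentric MSN-like, 42.4 ± 6.76 in PV/Th interneuron-like, 45.9 ± 11.6 in astrocyte-like, 50.8 ± 18.4 in OPC-like, 54.4 ± 12.3 in microglia-like and 78.8 ± 23.8 in neuroblast-like nuclei. Between neighbours the mean within-library difference exceeded its SD from neuroblast-like to oligodendrocyte-like nuclei, in 6 of 7 libraries, and from PV/Th interneuron-like to D1 MSN-like nuclei, in 5 of 7. It did not among the 3 MSN-like classes, nor from oligodendrocyte-like down to PV/Th interneuron-like nuclei.

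Of the MutL genes PMS1 varied less than the other measured genes, while the range of PMS2 (2.105-fold) was close to that of MSH3 (2.126-fold). PMS1, whose role in mammalian mismatch repair is minor but which is a known modifier of repeat expansion, ranged from 74.9 ± 4.78 CPM in D2 MSN-like to 112 ± 20.2 CPM in microglia-like nuclei (SD, n = 7), a 1.502-fold range, and no pair of neighbours in the order differed beyond its spread. PMS2, the main MutL endonuclease subunit of mismatch repair, lay between 35.3 ± 6.21 CPM (OPC-like) and 48.9 ± 17.9 CPM (astrocyte-like) in 8 of the 9 classes. The remaining class was microglia-like, at 23.2 ± 7.23 CPM, below OPC-like nuclei in 7 of 7 libraries. The astrocyte-like PMS2 mean included 86.3 CPM in control library 2 against 34.8 to 55.0 CPM in the other libraries.

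LIG1 was the least sampled gene. In D1 MSN-like nuclei it had 31 to 138 UMIs per library and values of 4.62, 6.67, 10.0 and 6.32 CPM in control libraries 1 to 4 and 5.06, 9.63 and 5.47 CPM in OVT73 libraries 1 to 3. The D2 MSN-like mean was 6.22 ± 1.58 CPM and the oligodendrocyte-like mean 2.54 ± 1.06 CPM (SD, n = 7). In microglia-like nuclei 10 UMIs were counted in all, with 0 in 4 of the libraries. No neighbours in the order of the LIG1 levels differed beyond their spread.

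D1 and D2 MSN-like nuclei, the projection neurons of the direct and indirect pathway, were compared within library. Of the 5 genes, 0 passed the threshold (adjusted p under 0.05, edgeR quasi-likelihood test with library as a block), while 2.35% of the 11278 genes tested did, 1.11% higher and 1.24% lower in D1 MSN-like nuclei. DESeq2 also called 0 of the 5, and the lowest unadjusted p in the edgeR fit was 0.423. The log2 difference, D1 minus D2, was -0.01 for MSH3 (95% interval -0.14 to 0.13), 0.00 for MSH6 (-0.16 to 0.16), 0.01 for PMS1 (-0.16 to 0.17), 0.06 for PMS2 (-0.11 to 0.24) and 0.14 for LIG1 (-0.20 to 0.47). None of the intervals for MSH3, MSH6 and PMS1 reached a difference of 0.2 on the log2 scale, and that of LIG1 was the widest.

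In the same fit the mean of D1 and D2 MSN-like nuclei was compared with each other class. These comparisons call most genes, so a call by itself sets no gene apart: 82.8% of genes tested were called against oligodendrocyte-like, 79.6% against microglia-like, 74.4% against astrocyte-like, 73.7% against OPC-like, 62.7% against PV/Th interneuron-like, 61.7% against neuroblast-like and 34.6% against eccentric MSN-like nuclei. By direction, the shares of genes higher and lower in MSN-like nuclei were 41% and 41.8% against oligodendrocyte-like, 41.6% and 38% against microglia-like, 36.3% and 38.1% against astrocyte-like, 37.3% and 36.4% against OPC-like, 32.3% and 30.4% against PV/Th interneuron-like, 34.6% and 27.1% against neuroblast-like, and 20.3% and 14.3% against eccentric MSN-like nuclei. Of the 35 values for the 5 genes, 21 passed the threshold. The LIG1 values among them are a description only, for the reason given below. The size and direction also depend on the scaling between classes. The fit used TMM factors, which centre the bulk of genes, and without them the median log2 difference of all genes lay between -0.01 (eccentric MSN-like) and -0.61 (microglia-like), where it was 0.07 and 0.06 with them. Every one of the 35 values was lower without the factors, and these lower values are given below for each called difference.

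MSH3 was higher in MSN-like nuclei than in all 7 other classes with TMM factors, in 7 of 7 libraries each. The log2 difference was 0.39 (SE 0.0609, adjusted p = 3.45e-08) against oligodendrocyte-like, 0.85 (SE 0.0712, adjusted p = 7.07e-17) against astrocyte-like, 0.96 (SE 0.0678, adjusted p = 2.99e-20) against OPC-like, 0.95 (SE 0.0720, adjusted p = 2.24e-18) against PV/Th interneuron-like and 1.53 (SE 0.102, adjusted p = 7.81e-21) against neuroblast-like nuclei. These 5 differences were past the threshold under all 15 alternatives tried, and without TMM factors they were 0.20, 0.37, 0.76, 0.60 and 1.05 in the same order. Against microglia-like nuclei it was 0.57 (SE 0.0711), but -0.11 and not past the threshold without TMM factors, so its direction there rests on the scaling. Against eccentric MSN-like nuclei it was 0.19 (SE 0.0675, adjusted p = 0.0236), and 8 of the 15 alternatives lost the call: no TMM factors (0.11), RLE size factors (0.14), DESeq2 (0.15), no library block (0.20), thinned nuclei (0.56), control libraries only (0.12), and the fits without OVT73 library 1 (0.18) or OVT73 library 2 (0.11).

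MSH6 was lower in MSN-like nuclei than in 3 classes, and under every alternative tried these calls remained. It fell by 0.87 on the log2 scale against oligodendrocyte-like nuclei (SE 0.0832, adjusted p = 7.74e-15, lower in 7 of 7 libraries), a level 1.83-fold higher in the oligodendrocyte-like class. The difference was -0.88 (SE 0.148, adjusted p = 4.87e-07) against neuroblast-like and -0.50 (SE 0.0978, adjusted p = 6.83e-06) against OPC-like nuclei. Against the other 4 classes it was between -0.20 and 0.08 and did not pass. Without TMM factors the 3 called MSH6 differences were -1.07, -1.37 and -0.70 in the same order. Without them the MSH6 values against PV/Th interneuron-like (-0.54), astrocyte-like (-0.66) and microglia-like nuclei (-0.85) did pass. The values against PV/Th interneuron-like and astrocyte-like nuclei also passed with RLE size factors (-0.29 and -0.28), with DESeq2 (-0.29 and -0.28) and without control library 3 (-0.30 and -0.28), and that against microglia-like nuclei (-0.33) without OVT73 library 2.

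**Figure D2:**
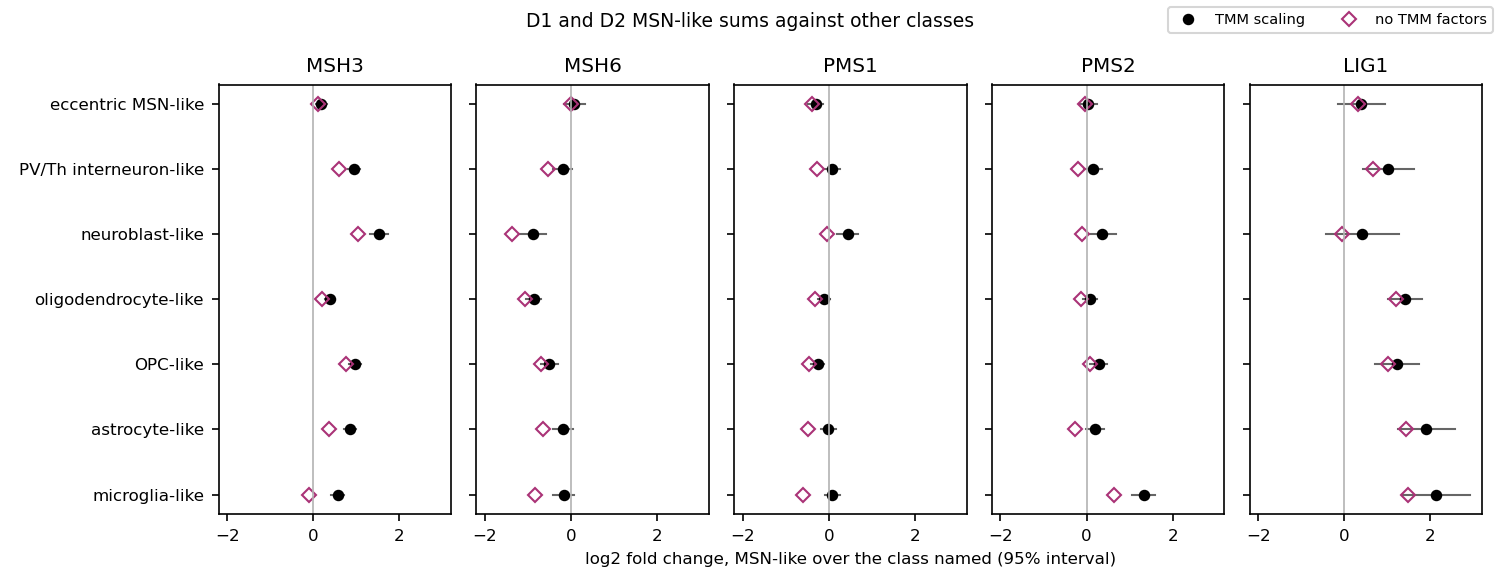
log2 fold change of D1 and D2 MSN-like sums over each other class for 5 genes, with TMM scaling (filled points, lines the 95% interval) and without TMM factors (open diamonds). The filled points of MSH3 lie above 0 in all 7 comparisons, whereas those of MSH6 lie between -0.88 and 0.08, and the diamonds lie to the left of the filled points.

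LIG1 was higher in MSN-like nuclei than in oligodendrocyte-like (log2 1.41, SE 0.194), OPC-like (1.22, SE 0.256), astrocyte-like (1.90, SE 0.330), microglia-like (2.14, SE 0.394) and PV/Th interneuron-like nuclei (1.02, SE 0.297), each in 7 of 7 libraries with TMM factors. Without TMM factors these 5 LIG1 differences were 1.21, 1.02, 1.44, 1.48 and 0.68. Against eccentric MSN-like (0.39, and 0.31 without TMM factors) and neuroblast-like nuclei (0.42, and -0.055 without them) it did not pass. LIG1 was near the limit of detection outside MSN-like classes. The filter on low counts looked at the sums of all classes together. Single LIG1 sums reached 10.0 CPM in D1 MSN-like, 8.25 in D2 MSN-like, 9.88 in eccentric MSN-like and 12.5 in neuroblast-like nuclei. The highest were 7.38 in PV/Th interneuron-like nuclei and 5.57 in any glial class. The neuroblast-like sums held 13 LIG1 UMIs in all, and their 12.5 CPM was 1 UMI in control library 3. By its highest single values LIG1 entered the fit only through MSN-like and neuroblast-like sums. Its calls are a description and no test of a difference. It did not pass the filter on low counts in fits without OVT73 library 1, without control library 3, of control libraries only or of thinned nuclei. With no filter in those fits the glial differences were called each time, and the microglia-like value without OVT73 library 1 was 3.33. These rest on few molecules: of the 10 microglia-like UMIs, 7 were in OVT73 library 1 and 1 in the control libraries. Without that library the neuroblast-like difference was called too (1.53). With nuclei thinned to 1000 UMIs the PV/Th interneuron-like difference was -0.14 and was not called. Nor was it called with control libraries only (0.96).

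The MutL genes gave fewer calls. PMS2 was higher in MSN-like than in microglia-like nuclei by 1.32 on the log2 scale (SE 0.133, adjusted p = 6.16e-14, 7 of 7 libraries), and by 0.65 without TMM factors, a difference that was called under every alternative tried. Its difference was 0.28 (adjusted p = 0.00695) against OPC-like nuclei and 0.36 (adjusted p = 0.0421) against neuroblast-like nuclei. The OPC-like call was lost without TMM factors (0.078), with thinned nuclei (0.27), with control libraries only (0.23), and without OVT73 library 1 (0.22) or OVT73 library 2 (0.17). The neuroblast-like call was lost without any one of OVT73 libraries 1 (0.32), 2 (0.19) and 3 (0.27) and control libraries 1 (0.37) and 3 (0.35), and with RLE size factors (0.32), DESeq2 (0.33), thinned nuclei (0.32) or control libraries only (0.0065), and its value was -0.11 without TMM factors. PMS1 was lower in MSN-like than in OPC-like nuclei (-0.26, SE 0.0774, adjusted p = 0.00235, lower in 6 of 7 libraries), a call that all alternatives kept, at -0.46 without TMM factors. It was lower than in eccentric MSN-like nuclei (-0.31, adjusted p = 0.00243, and -0.39 without TMM factors), but was at 0.21 with thinned nuclei and not called with no filter (-0.21) or control libraries only (-0.20). PMS1 was higher in MSN-like than in neuroblast-like nuclei (0.44, adjusted p = 0.00136). That call was lost without TMM factors (-0.035), with thinned nuclei (0.29) and with control libraries only (0.51). Against oligodendrocyte-like nuclei neither PMS1 (-0.11) nor PMS2 (0.08) passed, though PMS1 did without control library 4 (-0.17), OVT73 library 2 (-0.18) or OVT73 library 3 (-0.19), with thinned nuclei (-0.29), and without TMM factors (-0.31). PMS2 against astrocyte-like nuclei (0.20) did not pass, and did without control library 2 (0.29) or with no filter (0.30). Without TMM factors 4 further MutL values were called, all lower in MSN-like nuclei: PMS1 against PV/Th interneuron-like (-0.27, where it was 0.08), astrocyte-like (-0.49, where it was -0.01) and microglia-like nuclei (-0.60, where it was 0.08), and PMS2 against astrocyte-like nuclei (-0.28).

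The ratio of MSH3 to MSH6 UMIs within a sum needs no scaling between classes. Its size depends on the 2 genes' lengths, so only differences between classes are read. Over D1 and D2 MSN-like nuclei together it was 4.62, 4.53, 3.46 and 4.67 in control libraries 1 to 4 and 6.18, 6.48 and 4.40 in OVT73 libraries 1 to 3. In oligodendrocyte-like nuclei of the same libraries it was 2.53, 2.10, 1.65 and 1.40, and 2.49, 2.31 and 1.94. All MSN-like ratios were above all oligodendrocyte-like ratios. On the log2 scale the within-library difference was 1.25 ± 0.289 (SD, n = 7), a 2.38-fold difference, with a range of 0.87 to 1.74. Eccentric MSN-like nuclei were close to the other MSN-like classes at 4.51 ± 0.523. PV/Th interneuron-like nuclei were at 2.28 ± 0.455, and neuroblast-like nuclei had the lowest ratio, 1.01 ± 0.331. Microglia-like nuclei were at 3.03 ± 1.03, astrocyte-like at 2.56 ± 0.704 and OPC-like at 1.91 ± 0.858. Single libraries of these classes reached 5.22, 3.71 and 3.54, above the lowest ratio of D1 and D2 MSN-like nuclei together (3.46). In D1 and D2 MSN-like nuclei together the mean ratio was 5.69 ± 1.13 in OVT73 and 4.32 ± 0.578 in control libraries, and the groups overlapped. In eccentric MSN-like nuclei the means were 4.93 ± 0.418 and 4.2004 ± 0.358, and the lowest OVT73 ratio was 4.68 beside a highest control ratio of 4.67. This was the 1 class of 9 whose groups did not overlap. Of single genes tested in this class 7.64% had such a separation, and how often other gene pairs separate was not measured. MSH6 had 15 to 51 UMIs per library in this class, so nothing is read from the separation. The OVT73 mean ratio was higher in 6 of the 9 classes. It was lower in PV/Th interneuron-like (2.26 against 2.28), astrocyte-like (2.32 against 2.75) and neuroblast-like nuclei (0.992 against 1.02). The 9 classes share the same 7 libraries, so the count of classes is not separate evidence of a direction. No test was made of the ratio.

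**Figure D3:**
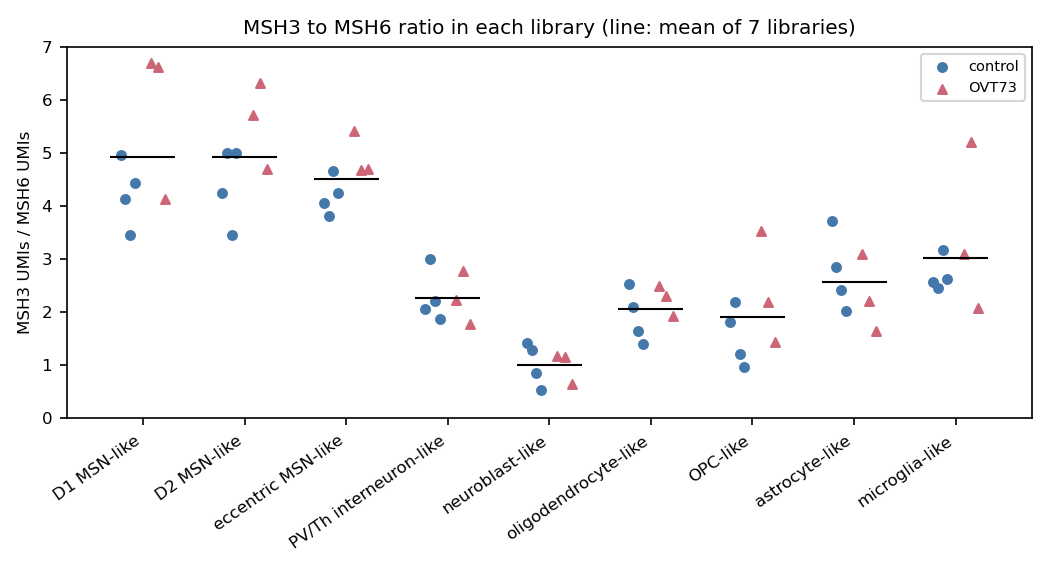
MSH3 UMIs divided by MSH6 UMIs (linear axis from 0) in each library and class, circles control and triangles OVT73, with a line at the mean of 7 libraries. The D1, D2 and eccentric MSN-like classes have means of 4.92, 4.92 and 4.51, and no other class has a mean above 3.03. Single microglia-like, astrocyte-like and OPC-like libraries reach 5.22, 3.71 and 3.54, among the MSN-like points.

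Markers of other cell types were measured in the same sums. Of 9 MSN markers, 9 had UMIs in oligodendrocyte-like nuclei, where their summed level was 7.12% of that in D1 and D2 MSN-like nuclei, and ranged from 1513 to 1570 CPM in control and 1472 to 1762 CPM in OVT73 libraries. In microglia-like nuclei 8 of 9 had UMIs, at 1.87%, with ranges of 194 to 572 CPM and 406 to 500 CPM. In PV/Th interneuron-like nuclei 8 of 9 had UMIs, at 10.7%, with 1383 to 4874 CPM in control and 1636 to 1917 CPM in OVT73 libraries, and the shares in OPC-like, astrocyte-like and neuroblast-like nuclei were 7.77%, 5.59% and 4.76%. Of the 9 listed oligodendrocyte markers, 8 had a row, and all 8 had UMIs in D1 MSN-like nuclei at 1.78% of their level in oligodendrocyte-like nuclei, ranging from 125 to 287 CPM in control and 136 to 181 CPM in OVT73 libraries. Their share was highest in astrocyte-like nuclei, at 10.9%, with 317 to 2852 CPM in control and 841 to 976 CPM in OVT73 libraries. The part of such RNA from other cells in the levels above was not tested.

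The other repair genes were called in both directions between MSN-like and oligodendrocyte-like nuclei. In this comparison 41% of all genes were called higher and 41.8% lower, so the counts of calls set no list apart. The filter on low counts looked at all classes together. Whether a listed gene passed it only through classes where it was high was not checked, so these values and adjusted p are a description. They carry TMM factors, without which the median over all genes here was -0.20. Of 9 tested mismatch repair and resynthesis factors, 1 was higher and 6 were lower in MSN-like nuclei, with a median log2 difference of -0.69 beside -0.01 over all genes tested. The 1 was MSH4, a MutS homologue known from meiosis (2.69, adjusted p = 6.64e-34). RFC1, the large subunit of the clamp loader, was at -0.78 (adjusted p = 1.01e-15) and RPA2, a subunit of the single-strand binding complex, at -1.002 (adjusted p = 4.41e-13). In base excision repair 3 genes were higher and 5 lower of 11, among them the thymine glycosylase TDG (0.74, adjusted p = 7.27e-12) and the oxoguanine glycosylase OGG1 (-1.88, adjusted p = 8.14e-16), with a median of -0.18. In interstrand crosslink repair, the pathway of FAN1, 3 were higher and 5 lower of 8, with FANCD2 at 2.98 (adjusted p = 1.10e-18) and its partner FANCI at -2.54 (adjusted p = 8.90e-33), and a median of -0.78. In nucleotide excision and transcription-coupled repair 2 were higher and 9 lower of 15, with ERCC6, which acts at stalled polymerases, at 0.99 (adjusted p = 6.58e-16) and DDB2, a damage sensor, at -2.87 (adjusted p = 7.35e-38), and a median of -0.26. The ribonucleotide reductase gene RRM2B, at another reported modifier locus, was lower (-0.51, adjusted p = 1.38e-05). Of 5 replication genes, 2 were higher and 3 lower, with the helicase subunit gene MCM7 at -1.60 (adjusted p = 8.90e-20) and MCM6 at 0.83 (adjusted p = 2.50e-06), and a median of -1.22.

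The same lists were compared with PV/Th interneuron-like nuclei, where 32.3% of all genes were called higher and 30.4% lower in MSN-like nuclei. Of the 9 mismatch repair and resynthesis factors 3 were higher and 1 lower, with MSH4 at 0.74 (adjusted p = 5.03e-09), the clamp loader subunit gene RFC3 at 1.22 (adjusted p = 4.91e-04) and RFC1 at -0.21 (adjusted p = 0.0361). The counts higher and lower were 2 and 0 of 11 in base excision repair, 4 and 2 of 8 in interstrand crosslink repair, 6 and 3 of 15 in nucleotide excision repair, and 1 and 1 of 5 among replication genes. FANCD2 was again higher in MSN-like nuclei (2.98, adjusted p = 7.00e-10). These counts and values carry TMM factors. Without the factors the share of calls higher in MSN-like nuclei was 28.1% instead of 51.5%. The median over all genes was -0.34 instead of 0.002, and the listed genes without the factors are not given. In PV/Th interneuron-like sums alone 4 interstrand crosslink repair genes passed the filter, beside the 8 tested here, so the listed values are again a description. Whether the PV/Th interneuron-like and oligodendrocyte-like comparisons differed was not tested.

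OVT73 and control libraries were then compared within each class. In the 9 classes and in all nuclei together, 44 values of the 5 genes could be tested, and 0 of them passed the threshold (edgeR quasi-likelihood test, adjusted over all genes of the class). The unadjusted p was under 0.05 for 0 of the 44, and DESeq2 also called 0. Over all genes the share with an unadjusted p under 0.05 was lowest in D1 MSN-like nuclei (497 of 12356). It was highest in eccentric MSN-like nuclei (544 of 7341). Over all genes 0% were called in 7 classes and in all nuclei, 0.0111% in OPC-like and 0.0136% in eccentric MSN-like nuclei. The narrowest 95% interval in a class, that of MSH3 in oligodendrocyte-like nuclei, spanned 0.42 on the log2 scale, and the widest, that of LIG1 in the same class, 2.03. Values below are CPM with the TMM factors of the class.

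**Figure D4:**
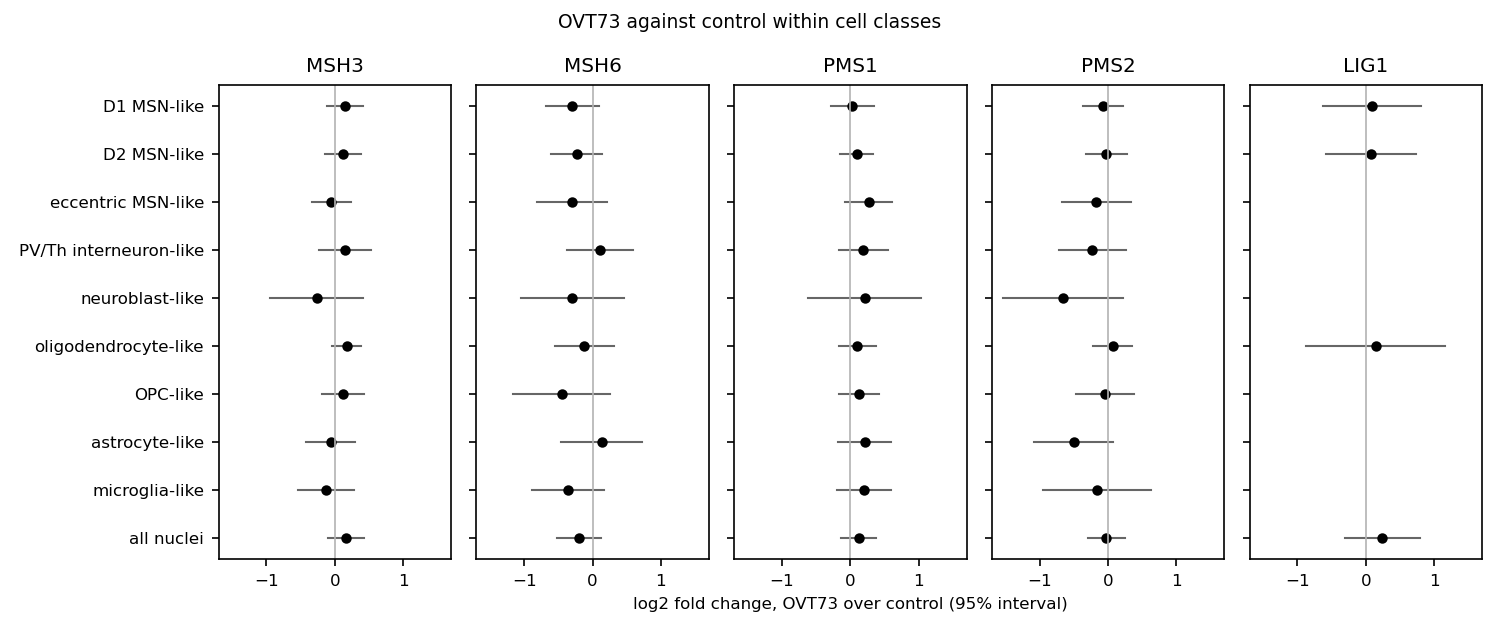
log2 fold change of OVT73 over control (points) with its 95% interval (lines) for 5 genes in 9 cell classes and in all nuclei. All 44 intervals include 0, and LIG1 passed the filter on low counts only in D1 MSN-like, D2 MSN-like and oligodendrocyte-like sums and in all nuclei.

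For MSH3 in D1 MSN-like nuclei the mean was 152 ± 22.5 CPM in OVT73 (SD, n = 3) and 138 ± 7.98 CPM in control libraries (n = 4), a log2 difference of 0.14 (95% interval -0.12 to 0.41, adjusted p = 0.948). In D2 MSN-like nuclei the difference was 0.12 (-0.14 to 0.38). In oligodendrocyte-like nuclei MSH3 was at 121, 118, 120 and 118 CPM in control libraries 1 to 4 and at 128, 146 and 131 CPM in OVT73 libraries 1 to 3. This was the only one of the 44 values whose groups did not overlap, a separation that 6.65% of the genes tested in that class had, and its log2 difference of 0.17 (SE 0.0952, adjusted p = 0.881) did not pass. Such separation was found for 5.23% of genes in D1 MSN-like, 5.95% in D2 MSN-like, 7.64% in eccentric MSN-like, 5.26% in PV/Th interneuron-like, 5.3% in neuroblast-like, 7.45% in OPC-like, 5.41% in astrocyte-like and 5.37% in microglia-like nuclei, and for 6.33% in all nuclei. Over the 9 classes the MSH3 differences ran from -0.27 to 0.17.

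MSH6 differences ran from -0.45 (OPC-like) to 0.13 (astrocyte-like). In D1 MSN-like nuclei the mean was 26.8 ± 4.57 CPM in OVT73 and 32.9 ± 5.16 CPM in control libraries (log2 -0.30, 95% interval -0.69 to 0.09, adjusted p = 0.948), and the groups overlapped. Without TMM factors OVT73 library 1, the deepest, had the lowest MSH6 value of the 7 libraries in D1 MSN-like, D2 MSN-like, eccentric MSN-like, OPC-like and neuroblast-like nuclei. Control library 4, with the highest mean mitochondrial share of UMIs (2.11%, against 0.757% to 1.66% in the other libraries), had the highest MSH6 value in oligodendrocyte-like, OPC-like, astrocyte-like and microglia-like nuclei. By the paper's supplement OVT73 library 1 also differed in read mapping. It had the lowest share of reads mapped to the genome, the highest to the transcriptome and the lowest antisense to genes. The part of depth, of read mapping and of RNA quality in the MSH6 values was not tested.

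PMS1 differences lay between 0.03 (D1 MSN-like) and 0.27 (eccentric MSN-like, 95% interval -0.07 to 0.61, adjusted p = 0.772). These 9 values come from the same 7 libraries and are not separate evidence of a direction. PMS2 differences lay between -0.66 (neuroblast-like, adjusted p = 0.9999) and 0.07 (oligodendrocyte-like). In astrocyte-like nuclei PMS2 was at 39.3 ± 4.34 CPM in OVT73 and 58.2 ± 21.5 CPM in control libraries, a log2 difference of -0.50 (95% interval -1.09 to 0.08, adjusted p = 0.9999), with control library 2 at 89.0 CPM and the other control libraries at 40.4 to 55.7 CPM. LIG1 differences were 0.09 in D1 MSN-like, 0.08 in D2 MSN-like and 0.14 in oligodendrocyte-like nuclei, and the narrowest of these 3 intervals, in D2 MSN-like nuclei, ran from -0.58 to 0.74.

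Whether the OVT73 effect differed between MSN-like and oligodendrocyte-like nuclei was tested as an interaction. Of the 5 genes 0 passed (edgeR), with 0% of the 13995 genes tested called, and the lowest unadjusted p of the 5 was 0.516. DESeq2 was not run for this difference. The difference of the effects, MSN-like minus oligodendrocyte-like, was 0.00 for MSH3 (95% interval -0.29 to 0.30), -0.12 for MSH6 (-0.53 to 0.28), 0.01 for PMS1 (-0.26 to 0.29), -0.05 for PMS2 (-0.38 to 0.28) and -0.14 for LIG1 (-1.24 to 0.95). Among the other repair and replication genes listed, 426 values were tested over the classes and all nuclei and 0 were called, with 15 at an unadjusted p under 0.05. Over all genes this held for 497 of 12356 in D1 MSN-like nuclei, the lowest share of any class, so the 15 do not set the lists apart.

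Genes whose class means followed those of a member most closely were picked by Pearson correlation of mean log2 CPM over the 9 classes, among 8853 other genes. For MSH3 they were AHCTF1 (r = 0.979), OTUD4 (0.954) and ZNF787 (0.927), and for MSH6 XPO7 (0.993), ZFP90 (0.987) and ZCCHC8 (0.986). For PMS1 they were EVI5 (0.953), TWF1 (0.932) and SSH1 (0.924), for PMS2 SPACA6 (0.980), GPT2 (0.971) and RUSC2 (0.964), and for LIG1 ACVR1B (0.985), RCAN2 (0.983) and ARFGEF3 (0.980). With 9 points per gene, drawn from the same libraries, such values are a description. Among the 5 genes themselves r ran from -0.65 (PMS1 and LIG1) to 0.58 (PMS2 and LIG1), and was -0.57 between MSH3 and MSH6.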

How the data were processed

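For each library the authors deposited raw counts, whole-number UMIs per feature and barcode, with no normalization. The submitters' processing notes name Cell Ranger 7.0.0 and STAR 2.7.2a; the reads were counted on the sheep build Oar_rambouillet_v1.0 with Ensembl genes and an added human HTT sequence. No setting for intronic reads is stated outright. For every library the paper's supplement lists most reads as intronic. It also lists a larger share mapped to the transcriptome than to exonic regions, so the counts took in reads outside exons. Nuclei with 200 to 7500 genes and at most 5% mitochondrial UMIs were kept. The 4% of nuclei with the highest Scrublet scores were removed per library (1358 in all), since its automatic cutoff marked only 9. Nuclei were clustered with scanpy 1.11.5 (3000 variable genes, 30 components, Harmony over libraries, Leiden resolution 1.0), giving 28 clusters. A cluster was named where at least 3 markers of 1 list were raised by a log2 difference over 1.0 and no other list reached 0.6 of their mean raise; 12 were left unnamed, 5 of them for doublet scores. The 0.6 was set after the marker profiles, and before group comparisons, were seen.

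UMIs were summed per library and class and tested with edgeR 4.0.16 (R 4.3.3; filterByExpr, TMM, robust quasi-likelihood), with Benjamini-Hochberg adjustment over all genes and a threshold of 0.05. Class comparisons had library as a block, since each library holds all classes. The barcode-to-sheep map was not used here, so no p-value measures the spread between single sheep. In the OVT73 comparisons within a class, p-values measure the spread between libraries. In the class comparisons and the interaction, the library term takes up differences between whole libraries. Those p-values measure the spread left over between classes of the same library. Class CPM are raw UMIs scaled to 1000000 per class and library, while fits carry TMM factors. Alternatives were DESeq2 1.42.0, other scalings, no filter, doublets kept, equal nuclei, thinning to 1000 UMIs, libraries left out and Leiden resolution 0.5. The 7 genes are named throughout, and of each other list the 2 genes with the smallest p per direction in 2 class comparisons, from which some are given. Simulated data were run through the OVT73 fit in D1 MSN-like and oligodendrocyte-like sums and through the D1 against D2 comparison. The outcome of these runs is not given here, and no result above rests on it. The comparisons of MSN-like nuclei with other classes and the interaction were not simulated. The members and lists were chosen with earlier results of these data known. No sequence or coordinate is given. One listed gene is not reported here.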

Additional observations from a re-analysis of the deposited data

Results flagged for a closer look

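In each class the 4 control values of each gene were checked for a library that lies far from the other 3 (its gap to the nearest over the range, above Dixon's 95% critical value, which chance passes in about 1 of 20 groups). Of 44 groups 2 were marked, both for PMS1 in control library 2, which held 1 sheep. PMS1 was at 93.4 CPM there in D1 MSN-like nuclei, against 66.4 to 70.8 CPM in the other control libraries. In eccentric MSN-like nuclei it was at 112 CPM, against 83.8 to 84.6 CPM. In D2 MSN-like nuclei the PMS1 value of this library was 78.0 CPM before TMM factors, within the 69.6 to 82.3 CPM of all libraries. The test of a difference of the OVT73 effect between MSN-like and oligodendrocyte-like nuclei marked none of the 5 genes.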

How the results depend on the processing

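No member was called between OVT73 and control or between D1 and D2 MSN-like nuclei under any alternative run, nor for the difference of the OVT73 effect without TMM factors or with any 1 library left out, the alternatives run for it. The count of 21 calls against other classes was 12 with nuclei thinned to equal UMIs and 11 with control libraries only, and ran from 13 to 22 with 1 library left out, the lowest without OVT73 library 1. LIG1, with 5 of the 21 calls, did not pass the filter in 4 of these fits. Elsewhere it entered the fit only through MSN-like and neuroblast-like sums, so its calls are a description. The count was 20 with the replicate block of library left out, 24 without TMM factors (5 of the 21 lost and 8 others called) and 21 with DESeq2. Of the 21 called values 16 kept their sign and 14 their call under all alternatives that gave a value. Both counts include LIG1 values, which are a description only. Among values past the threshold with or without TMM factors, leaving the factors out changed the direction for MSH3 against microglia-like (-0.11), PMS1 against PV/Th interneuron-like (-0.27), microglia-like (-0.60) and neuroblast-like (-0.035), and PMS2 against astrocyte-like (-0.28) and neuroblast-like nuclei (-0.11). Those of PMS1 against PV/Th interneuron-like and microglia-like and of PMS2 against astrocyte-like nuclei were called in the changed direction. The sign of 5 values called in neither fit also turned: PMS2 against PV/Th interneuron-like (-0.20), oligodendrocyte-like (-0.12) and eccentric MSN-like (-0.040), LIG1 against neuroblast-like (-0.055) and MSH6 against eccentric MSN-like nuclei (-0.00057). With thinned nuclei the direction of a called value changed for PMS1 against eccentric MSN-like (0.21) and, with no filter, LIG1 against PV/Th interneuron-like nuclei (-0.14), and that of uncalled values for PMS1 against PV/Th interneuron-like (-0.36) and microglia-like (-0.16), MSH6 against eccentric MSN-like (-0.073) and PMS2 against oligodendrocyte-like nuclei (-0.024). Without TMM factors the share of calls that were higher in MSN-like nuclei moved from 51.5% to 28.1% (PV/Th interneuron-like), 48.8% to 27.7% (astrocyte-like), 52.3% to 33.4% (microglia-like), 56.0% to 34.2% (neuroblast-like), 58.7% to 46.5% (eccentric MSN-like) and 50.6% to 39.9% (OPC-like). Of the 643 alternative values of the OVT73 comparison 50 had the other sign, none of them called. No paired analysis was possible because the labels give OVT73 and control libraries no shared numbers. Fits of LIG1 with no filter under other settings, and those of the MSH3 to MSH6 ratio, were chosen after seeing the data. Depth limits LIG1 most, with 1170 UMIs in all.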

Other observations

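A cluster of 145 kept nuclei, left unnamed and in no comparison, was led by TOP2A, DIAPH3 and NDC80, genes of DNA decatenation, cytokinesis and the kinetochore that dividing cells express. LIG1, whose main known task is joining Okazaki fragments, had 21 UMIs among the 475895 of this cluster, or 44.1 CPM (exact 95% Poisson interval 27.3 to 67.5, counting error only). Over the D1 MSN-like sums it was at 6.67 CPM (6.08 to 7.31), and over oligodendrocyte-like sums at 2.94 CPM (2.37 to 3.60). The 21 UMIs were 9, 5 and 5 in OVT73 libraries 1 to 3 and 1, 0, 1 and 0 in control libraries 1 to 4, which had 35, 42 and 28 nuclei and 8, 3, 11 and 18 nuclei of this cluster. In the same cluster MSH6 was at 94.6 CPM (69.0 to 127) and MSH3 at 137 CPM (105 to 174). PMS1 was at 160 CPM (126 to 200) and PMS2 at 54.6 CPM (35.7 to 80.1) there.

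In the 2 named classes too small to test, SST/NPY interneuron-like (0.328% of kept nuclei) and cholinergic interneuron-like (0.187%), MSH3 was at 108 CPM (94.3 to 124) and 92.2 CPM (77.0 to 110), and MSH6 at 38.7 CPM (30.5 to 48.5) and 39.3 CPM (29.6 to 51.2), as summed counts over all libraries. The brackets are Poisson intervals of counting error only, and single libraries spread further. MSH3 ran from 78.2 to 190 CPM and from 32.4 to 181 CPM over the libraries in the same order of classes. The MSH6 ranges were 21.9 to 71.8 CPM and 11.8 to 91.0 CPM.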
